A study of Mus musculus with 14 samples.

Results

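The genes described here are 8 enzymes that make serine, asparagine, proline precursors and mitochondrial one-carbon units in mouse liver, namely Asns, Phgdh, Psat1, Psph, Shmt2, Mthfd2, Aldh18a1 and Mthfd1l. They were taken by name from the 24411 genes of the deposited count files, and all 8 were found there. Only Asns and Shmt2, 2 of the 8, had enough reads to enter the test across genes, which covered 9644 genes, and the other 6 are described by their reads. None of the 8 was used to define the groups.

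RNA was measured in livers of male littermates aged 5 to 7 months. WT mice were Rbbp5 (flox/flox); Alb-CRE (-/-), and LKO mice were Rbbp5 (flox/flox); Alb-CRE (+/-). Both genotypes thus carry the floxed Rbbp5 alleles, and the albumin promoter directs Cre to hepatocytes. Whether the other liver cells of LKO mice keep the gene was not measured. Mice of each genotype received 1 intraperitoneal injection of tunicamycin at 0.05 mg/kg in 500 µl of 3% DMSO in PBS, or of the DMSO and PBS vehicle alone, between 9 and 10 am, and the liver was taken 8 h later. The libraries number 3 for WT vehicle, 3 for WT tunicamycin, 4 for LKO vehicle and 4 for LKO tunicamycin. Libraries 3 and 4 of the LKO vehicle group were near duplicates and were summed into 1 sample, which left 13. The labels do not say that each library is a separate mouse, so the p-values measure the spread between these samples, which may be technical.

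Tunicamycin blocks N-linked glycosylation, so that unfolded proteins collect in the endoplasmic reticulum. The kinase PERK then phosphorylates eIF2α, general translation slows and the transcription factor ATF4 is made. ATF4 is known to induce genes of amino acid synthesis and transport, including the genes described here, and genes of the stress response such as Ddit3, which encodes CHOP. RBBP5 is a core subunit of the complexes that methylate lysine 4 of histone H3.

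Phgdh, Psat1 and Psph encode the enzymes that turn the glycolytic intermediate 3-phosphoglycerate into serine. Shmt2 moves a carbon unit from serine to folate in mitochondria, Mthfd2 oxidises it and Mthfd1l releases it as formate. Asns makes asparagine from aspartate, and Aldh18a1 begins proline synthesis from glutamate.

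The sequence upstream of 4 members is shown because Asns carries the best known stress element of the set, while Mthfd2 and Aldh18a1 had groups whose reads did not overlap and Mthfd1l had its 2 highest samples in common with Asns, as described below. The sequences are RefSeq's, in build GRCm38.p6, and each covers 250 bases before a start site. The first line gives the 30 bases around the Asns start site (chr6:7693205-7693234, minus strand) that hold both nutrient-sensing elements known from the ASNS promoter, TGATGAAAC and GTTACA, in capitals and 11 bases apart. In the upstream sequences, capitals mark these elements (the second is cut by the start site) and CCAAT on either strand.
Asns elements: caTGATGAAACttcccgcacgcGTTACAga
Asns (chr6:7693210-7693459, minus strand): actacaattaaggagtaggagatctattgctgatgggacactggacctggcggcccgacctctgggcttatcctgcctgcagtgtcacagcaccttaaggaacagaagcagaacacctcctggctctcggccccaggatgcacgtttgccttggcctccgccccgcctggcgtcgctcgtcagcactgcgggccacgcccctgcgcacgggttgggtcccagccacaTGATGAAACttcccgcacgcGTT
Mthfd2 (chr6:83317605-83317854, minus strand): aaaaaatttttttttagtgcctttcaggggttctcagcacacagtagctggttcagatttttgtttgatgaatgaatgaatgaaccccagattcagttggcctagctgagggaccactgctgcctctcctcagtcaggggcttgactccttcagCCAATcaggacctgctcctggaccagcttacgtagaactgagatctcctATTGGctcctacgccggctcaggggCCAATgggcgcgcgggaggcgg
Aldh18a1 (chr19:40588464-40588713, minus strand): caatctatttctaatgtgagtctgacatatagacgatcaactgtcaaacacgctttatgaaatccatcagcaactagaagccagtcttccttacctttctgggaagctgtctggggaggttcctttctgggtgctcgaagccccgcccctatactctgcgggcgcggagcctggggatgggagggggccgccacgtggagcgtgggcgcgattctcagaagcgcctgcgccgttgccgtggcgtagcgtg
Mthfd1l (chr10:3972825-3973074, plus strand): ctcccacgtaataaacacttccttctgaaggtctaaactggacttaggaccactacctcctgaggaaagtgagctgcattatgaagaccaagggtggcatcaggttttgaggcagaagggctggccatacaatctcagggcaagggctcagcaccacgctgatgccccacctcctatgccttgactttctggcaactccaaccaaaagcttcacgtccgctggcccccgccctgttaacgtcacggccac

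All 8 members had at least 1 window in the RefSeq table, with 9 windows in all, and each window ran from 250 bases before to 50 bases after a start site. Both strands were searched. The composite element bound by ATF4 with C/EBP proteins, TGATGNAA, was found in 3.97% of 32851 windows of 300 bases, and among the members in Asns alone, from base -23 to base -16. TGATGAAAC, which overlaps it, was in 0.247% of windows and GTTACA in 8.25%, and Asns alone among the members held each. The cyclic AMP response element TGACGTCA was in 1.79% of windows and in no member. CCAAT was in 37.4% of windows and in the windows of Mthfd2, Phgdh, Psat1 and Psph. These are matches of letters and not measured binding.

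Library depth ranged from 6507018 to 13519421 reads on the gene's strand, of which 72.5 to 75.5% fell on Rn45s, the 45S ribosomal RNA gene, and from 1704479 to 3551398 reads lay outside it. Levels are given as CPM, read counts scaled by the TMM library size with Rn45s included. Rbbp5 itself was 0.89 lower in LKO than in WT livers on the log2 scale over both treatments (SE 0.18, edgeR quasi-likelihood, Benjamini-Hochberg adjusted p = 0.0181), a call lost without WT vehicle 2 (0.0650). LKO vehicle 1, at 4.15 CPM, lay within the range of the WT vehicle samples, which began at 4.07 CPM. The hepatocyte markers Alb, Apoa1, Ttr, Cps1 and Hnf4a summed to between 12670 and 22270 CPM in every sample. Alb alone, at 9850 to 19100 CPM, made up most of this sum, which says little about the other markers. Cps1 ran from 699 to 1530 CPM. In whole liver, fewer cells of a type and less RNA per cell cannot be told apart.

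Shmt2 was by far the most abundant member. In the deposited FPKM the column of LKO vehicle 2 summed to 99386, against 156509 to 169701 in the other libraries, and Rn45s is listed there at 0. Without Rn45s the columns summed to between 89308 and 99386. Per length, on this FPKM scale, Shmt2 averaged 3.71 over the 13 samples, and its lowest sample, 3.12, lay above the highest value of every other member. Asns averaged 0.347 FPKM and Psph 0.275. Mthfd2 averaged 0.0922 FPKM, Psat1 0.0776, Mthfd1l 0.0749 and Aldh18a1 0.0454. Below Shmt2, the ranges of neighbouring members in this order overlapped. Shmt2 supplied 79.8% of all reads on the members. Phgdh had 0 reads in the 13 samples, which allows up to 0.0258 CPM over all of them by counting error (3 reads). The deposited FPKM table listed Phgdh at 0.0165 in LKO tunicamycin 3 and at 0 elsewhere. A pseudogene of Phgdh is annotated, and the counts leave out reads that map to several places. Whether reads of Phgdh were left out in this way was not tested.

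**Figure D1:**
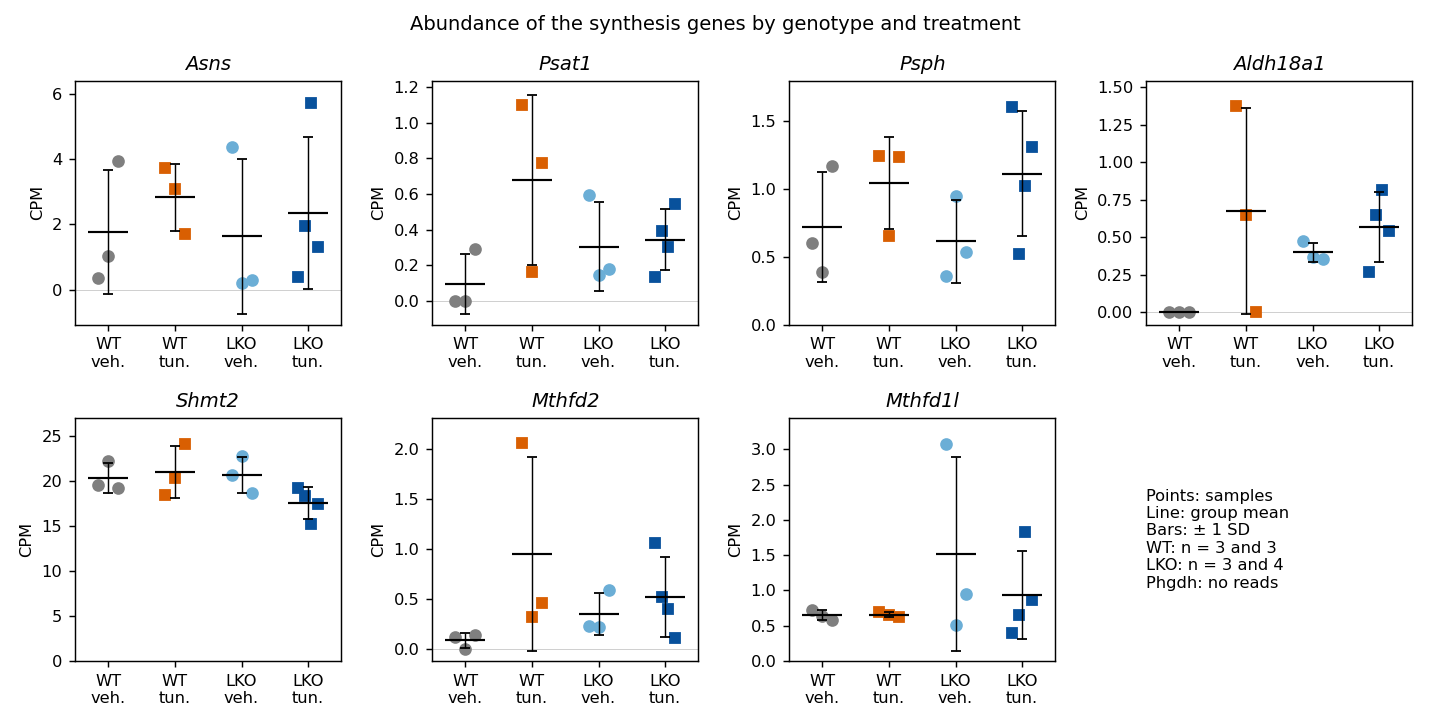
CPM of the 7 members with reads (vertical axes, each panel with its own scale) in the 4 groups (horizontal axes). Points are samples, lines are group means and bars are 1 SD, with n = 3, 3, 3 and 4. Shmt2 stays between 15.2 and 24.1 CPM, while Asns ranges from 0.219 to 5.71 CPM with high and low samples in 3 of the groups.

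The asparagine synthetase gene Asns differed more between samples of 1 group than between groups. In the WT vehicle samples it was at 0.359, 1.03 and 3.94 CPM, from 3, 8 and 27 reads. In the WT tunicamycin samples it was at 3.72, 3.08 and 1.70 CPM, from 27, 19 and 11 reads. The 3 tunicamycin samples lay inside the range of the vehicle samples, so the groups overlapped. In LKO livers the vehicle samples held 4.38, 0.219 and 0.297 CPM. The LKO tunicamycin samples held 0.400, 1.95, 5.71 and 1.30 CPM, and again the groups overlapped. The lowest and the highest of the 13 samples were both LKO livers.

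After tunicamycin the fitted Asns level was 0.75 higher in WT on the log2 scale (SE 0.97, 95% interval -1.29 to 2.80) and 0.91 higher in LKO (SE 0.87, interval -0.93 to 2.74). Neither difference passed the test (edgeR quasi-likelihood test, Benjamini-Hochberg adjusted p = 0.772 and 0.741). Averaged over genotypes the difference was 0.83 (SE 0.65, interval -0.54 to 2.20, adjusted p = 0.511). Both intervals run from below 0 to beyond a 4-fold difference, so neither a rise nor its absence can be read from Asns at this spread. LKO against WT gave -0.38 with vehicle (SE 1.01, adjusted p = 0.966) and -0.22 after tunicamycin (SE 0.84, adjusted p = 0.933) by the same test. The interaction, which asks whether the response to tunicamycin differed between genotypes, was 0.16 (SE 1.29, adjusted p = 0.999). Single samples set these values. Without LKO vehicle 1 the difference after tunicamycin in LKO was 3.16, and without LKO tunicamycin 3 it was -0.09. Without WT vehicle 3 the WT difference was 2.02.

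Shmt2, the mitochondrial serine hydroxymethyltransferase gene, varied much less. It was at 19.5, 22.2 and 19.2 CPM in WT vehicle and at 18.4, 20.3 and 24.1 CPM in WT tunicamycin samples. In LKO it was at 20.6, 22.7 and 18.7 CPM with vehicle and at 19.2, 18.4, 15.2 and 17.4 CPM after tunicamycin. The last group has the lowest mean, 17.5 ± 1.73 CPM (SD, n = 4) against 20.7 ± 2.01 (SD, n = 3) in LKO vehicle, and 1 of its samples lies above the lowest LKO vehicle sample, so the ranges overlap.

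The fitted change with tunicamycin was 0.04 in WT (SE 0.14, 95% interval -0.25 to 0.33) and -0.24 in LKO (SE 0.12, interval -0.50 to 0.02) on the log2 scale, with edgeR quasi-likelihood adjusted p (Benjamini-Hochberg) of 0.922 and 0.453. LKO against WT gave 0.02 with vehicle (SE 0.13, adjusted p = 0.986) and -0.26 after tunicamycin (SE 0.13, interval -0.53 to 0.01, adjusted p = 0.334) by the same test. The interaction was -0.28 (SE 0.18, adjusted p = 0.982). The interval for Shmt2 in WT ends at 0.33, while that for Asns ends at 2.80.

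Of the 2 members tested, 0 passed the adjusted threshold of 0.05 in any of the 7 contrasts by edgeR, and 0 had an unadjusted p under 0.05. DESeq2 called 0 where it gave an adjusted p, for Shmt2 in 7 contrasts and for Asns in 4, and limma on log2(FPKM + 1), whose filter kept Shmt2 alone of the members, called 0. Among all 9644 genes, the same edgeR rule called 0.363% for tunicamycin in WT, 0.0311% for tunicamycin in LKO, 0.0415% for LKO against WT with vehicle and 0.861% for LKO against WT after tunicamycin. It called 0% for the interaction, where 474 genes had an unadjusted p under 0.05. Averaged over genotypes it called 4.32% for tunicamycin, and averaged over treatments 2.21% for genotype. With so few genes called anywhere, 0 of 2 is near the background. The median over the 2 members was 0.40 for tunicamycin in WT and 0.33 in LKO, against 0.01 and 0.00 over all genes. In LKO 1 of the 2 was above 0 and 1 below, and the intervals of Asns are wide. These medians therefore do not show a shift shared by both.

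**Figure D2:**
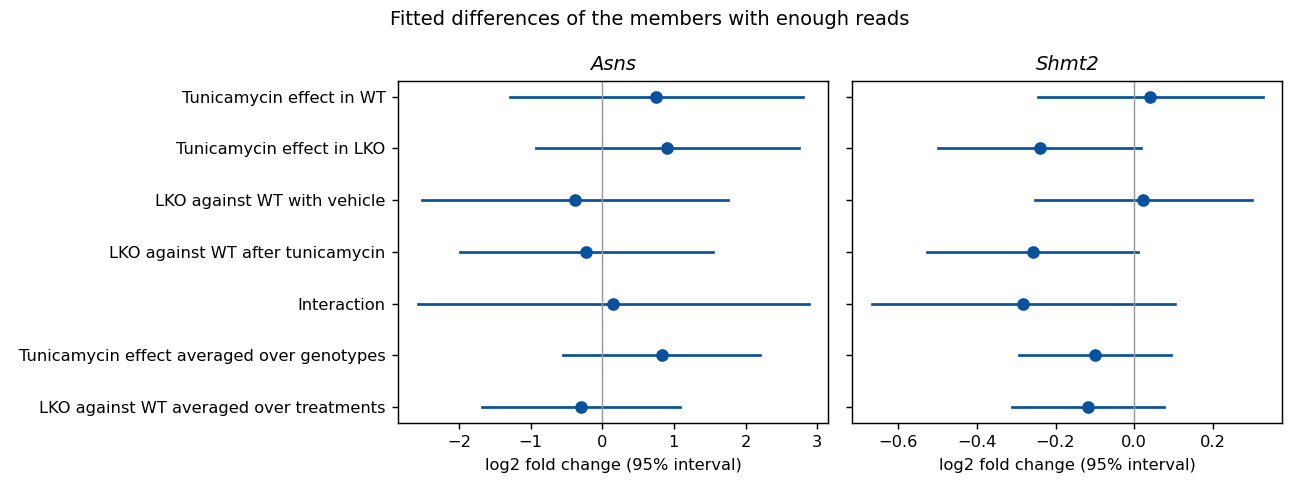
Fitted log2 fold changes (points) of Asns and Shmt2 with 95% intervals (lines) in the 7 contrasts, from 13 samples, with a separate horizontal scale for each gene. Every interval crosses 0, and those of Asns, such as -1.29 to 2.80 for tunicamycin in WT, are several times wider than those of Shmt2.

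Both partner genes of mitochondrial folate metabolism were sparse. Mthfd2 had 1, 0 and 1 reads in the WT vehicle samples and 15, 2 and 3 in the WT tunicamycin samples, or 0.120, 0 and 0.146 CPM against 2.06, 0.324 and 0.463 CPM. Every treated WT sample lay above every WT vehicle sample. In LKO, the vehicle samples had 2, 3 and 10 reads, also above each WT vehicle sample in CPM, and the tunicamycin samples had 8, 4, 4 and 1. The LKO groups overlapped.

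Pooled over samples, the Mthfd2 ratio of WT tunicamycin to WT vehicle was 11.6, from 20 against 2 reads, with an exact 95% counting interval of 2.81 to 102. The ratio of LKO to WT vehicle was 4.43, from 15 against 2 reads, with an interval of 1.03 to 39.9. Without the summed sample of LKO vehicle 3 and 4, which held 10 of these 15 reads, it was 2.60, and without WT vehicle 2 it was 2.93. Leaving out WT tunicamycin 1 gave 4.55 for the first ratio, and leaving out WT vehicle 2 gave 7.64. These intervals cover counting error only, and reads are not independent molecules. In a fit without the filter on low counts, which tested 16251 genes and called 1.78% of them for tunicamycin in WT, Mthfd2 was 3.29 higher there on the log2 scale (SE 0.94) with an edgeR quasi-likelihood adjusted p (Benjamini-Hochberg) of 0.0508. Over 17 alternatives to that unfiltered fit, the adjusted p of Mthfd2 ran from 0.00522 to 0.739 and was under 0.05 in 10. Without WT tunicamycin 1, which held 15 of the 20 reads, it was 0.739, so the value turns on that library.

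Aldh18a1, whose product starts proline synthesis, had 0 reads in each of the 3 WT vehicle samples. The WT tunicamycin samples had 10, 4 and 0 reads (1.38, 0.649 and 0 CPM). In LKO the vehicle samples had 4, 5 and 6 reads (0.474, 0.365 and 0.356 CPM), and the tunicamycin samples had 2, 5, 8 and 5 (0.267, 0.651, 0.815 and 0.543 CPM). All 3 LKO vehicle samples thus lay above all 3 WT vehicle samples. Set against a floor of 3 reads over the WT vehicle group, the pooled Aldh18a1 reads gave bounds of 5.39-fold in WT tunicamycin and 2.95-fold in LKO vehicle. These bounds cover counting error in the WT vehicle group alone. They leave out counting error in the higher group and the spread between samples. Without WT tunicamycin 1, which held 10 of the 14 treated WT reads, the first bound was 2.43, and without WT vehicle 1, 2 or 3 it was 3.44, 3.56 or 3.79. The second bound was 1.88 to 2.07 without 1 of the WT vehicle samples.

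Without the filter, Aldh18a1 passed the test for tunicamycin in WT (edgeR quasi-likelihood, Benjamini-Hochberg adjusted p = 0.0230) and for tunicamycin averaged over genotypes (adjusted p = 0.0117), where 4.7% of all genes were called. It did not pass for LKO against WT with vehicle (adjusted p = 0.185), where 0.517% were. On the log2 scale the fitted tunicamycin difference was 5.655 in WT (SE 1.44). The WT vehicle samples had 0 reads, so the size of this value does not estimate a fold change. In LKO the difference was 0.55 (SE 0.61) and did not pass (adjusted p = 0.800 by the same test). The averaged call thus rests on the WT samples. The interaction, which contains the WT value and shares its limit, was -5.10 (SE 1.68, adjusted p = 0.685 by the same test). Over 17 alternatives the adjusted p in WT ran from 0.000469 to 0.356. It was 0.356 without WT tunicamycin 1, and 0.09999, 0.0818 and 0.0746 without WT vehicle 1, 2 or 3. The averaged value ran from 0.000472 to 0.152 and missed the threshold only without WT tunicamycin 1.

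Counting every gene with a read, the groups did not overlap, with the treated or LKO group higher, for 6.66% of 16251 genes for tunicamycin in WT and for 6.89% for LKO against WT with vehicle. Among the 7 members with reads this held for 1 (Mthfd2) and for 2 (Mthfd2 and Aldh18a1). The groups overlapped for all 7 with tunicamycin in LKO and for LKO against WT after tunicamycin, where 8.41% and 9.7% of genes did not overlap in either direction. Both comparisons that Mthfd2 enters share the WT vehicle samples.

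The serine synthesis genes had few reads. Psat1, the phosphoserine aminotransferase, had 0, 0 and 2 reads in WT vehicle, 8, 1 and 5 in WT tunicamycin, 5, 2 and 3 in LKO vehicle and 1, 3, 3 and 5 in LKO tunicamycin samples. The pooled WT ratio with tunicamycin was 8.09, with an exact 95% counting interval of 1.86 to 73.3, but the groups overlapped. Both vehicle reads came from WT vehicle 3. Without that sample only a bound of the same kind as for Aldh18a1, 3.79-fold, could be given. The ratio was 5.15 without WT vehicle 1 and 5.35 without WT vehicle 2. The unfiltered adjusted p for Psat1 was 0.156 (edgeR quasi-likelihood, Benjamini-Hochberg). It ran from 0.0725 to 0.643 over 17 alternatives. Psph, the phosphatase of the last step, ranged from 0.355 to 1.60 CPM and was 0.716 ± 0.404 in WT vehicle (SD, n = 3) and 1.04 ± 0.340 after tunicamycin (n = 3). In LKO it was 0.613 ± 0.304 CPM with vehicle (SD, n = 3) and 1.11 ± 0.459 CPM after tunicamycin (n = 4). The 4 groups overlapped for Psph.

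Mthfd1l, the formate-releasing enzyme gene, showed a different layout. All 6 WT samples lay between 0.583 and 0.719 CPM, with 4 to 6 reads each. LKO vehicle samples were at 3.08, 0.511 and 0.949 CPM and LKO tunicamycin samples at 0.400, 0.651, 1.83 and 0.869 CPM. The 2 highest samples were LKO vehicle 1 (26 reads) and LKO tunicamycin 3 (18 reads), and the other 5 LKO samples ran from 0.400 to 0.949 CPM. The counting interval was 0.0824 to 1.17 CPM for the lowest of these 5 and 0.543 to 1.54 CPM for the highest. These intervals overlapped each other and those of the WT samples, such as 0.264 to 1.56 CPM for WT vehicle 1. A wider spread of these 5 samples than in WT therefore cannot be read from so few reads. LKO against WT over both treatments was 0.80 on the log2 scale without the filter (SE 0.39), which did not pass (edgeR quasi-likelihood, Benjamini-Hochberg adjusted p = 0.327, range 0.0934 to 0.770 over 17 alternatives), with 3.16% of genes called. Without LKO vehicle 1 this difference was 0.379.

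Some members shared their highest samples. LKO vehicle 1 and LKO tunicamycin 3 were the highest 2 samples for both Asns and Mthfd1l, whereas Mthfd2, Psat1 and Aldh18a1 were highest in WT tunicamycin 1. Psph was highest in LKO tunicamycin 1 and Shmt2 in WT tunicamycin 3. WT tunicamycin 1 led the next sample by 8 against 5 reads for Psat1 and by 10 against 8 for Aldh18a1. The counting intervals of these leading and next samples overlapped. The next sample for Aldh18a1 was LKO tunicamycin 3. Summed without Shmt2, the members reached 10.2 CPM in WT tunicamycin 1, 10.1 in LKO tunicamycin 3 and 9.12 in LKO vehicle 1, and at most 6.12 CPM in the other 10 samples. WT tunicamycin 1 was also the highest of the 13 samples for Ddit3, at 26.3 CPM.

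Ddit3 differed widely between the 3 treated WT samples. It was at 26.3, 1.30 and 20.4 CPM in WT tunicamycin 1, 2 and 3, and from 0.641 to 1.90 CPM in WT vehicle. Trib3, an inhibitory pseudokinase induced by CHOP, was at 9.22, 0.649 and 8.64 CPM in the same samples. WT tunicamycin 2 thus lay within the vehicle range for both. It held 3.08 CPM of Asns, which is also within the WT vehicle range of 0.359 to 3.94 CPM, and WT tunicamycin 3 held 1.70. The counting intervals of these 2 treated samples overlapped for Asns, at 1.85 to 4.81 and 0.848 to 3.04 CPM. Aldh18a1 had 4 reads in WT tunicamycin 2 and 0 in WT tunicamycin 3, with counting intervals that overlapped (0.177 to 1.66 and 0 to 0.569 CPM). Atf4 itself was at 20.9, 12.5 and 25.9 CPM in these samples and from 13.7 to 14.5 CPM in WT vehicle.

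**Figure D3:**
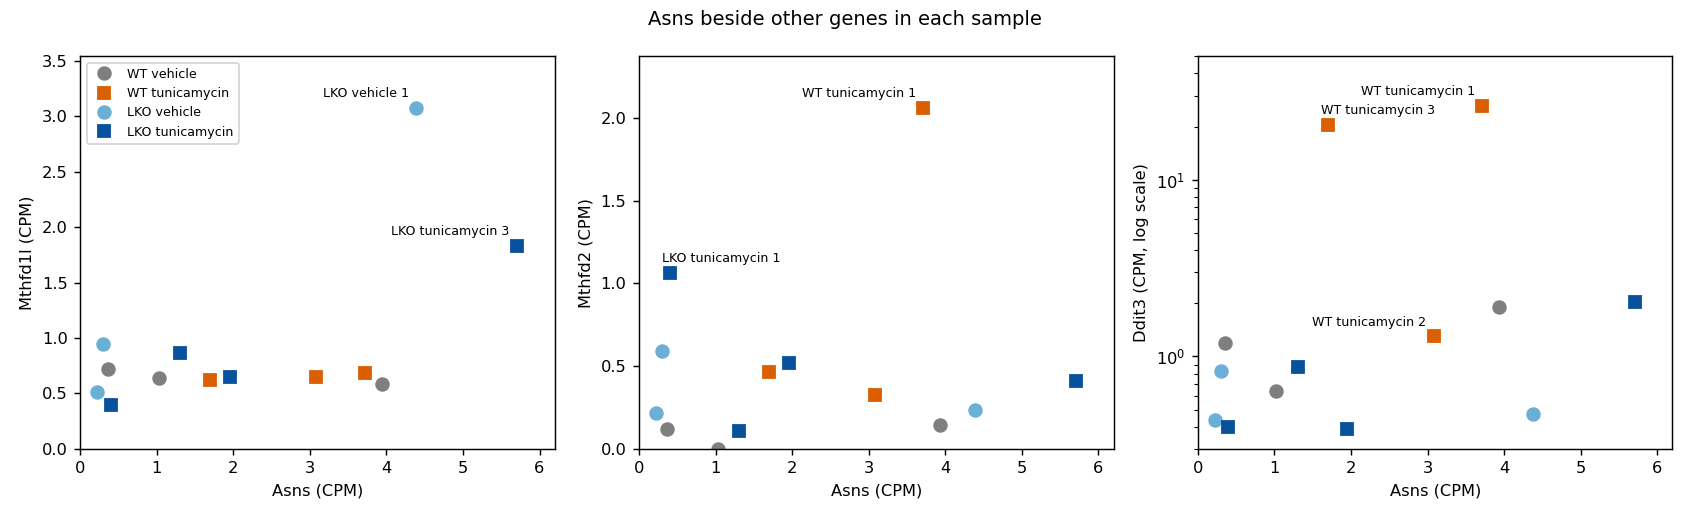
Asns (horizontal axes, CPM) against Mthfd1l, Mthfd2 and Ddit3 (vertical axes, CPM, logarithmic for Ddit3) in the 13 samples, coloured by group. LKO vehicle 1 and LKO tunicamycin 3 are high in Asns and Mthfd1l, WT tunicamycin 1 is high in Mthfd2 at 2.06 CPM, and WT tunicamycin 2 has Asns at 3.08 CPM with Ddit3 at 1.30 CPM.

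By Pearson correlation of log2 CPM over the 13 samples, the genes most like Asns among the 9644 tested were Sar1a, a GTPase of vesicle export from the endoplasmic reticulum (r = 0.867), and Adck4 (r = 0.853). Among those most like Shmt2 was Polr2m (r = 0.882). These values were picked as among the highest of all genes tested, over samples that share group and depth, and are given as a description.

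Other genes of the same pathways were tested in the same fit. The edgeR calls among them came only with tunicamycin averaged over genotypes, and each was lost without WT tunicamycin 1. The 12 other genes of serine and glycine metabolism were all tested and 0 were called in any of the 7 contrasts by edgeR's quasi-likelihood test, with at most 4 at an unadjusted p under 0.05. DESeq2 called 1 and limma on log2(FPKM + 1) called 2 of them with tunicamycin averaged over genotypes, and 0 elsewhere. Shmt1, the cytosolic partner of Shmt2, was nearest, at -0.42 (SE 0.12) with tunicamycin averaged over genotypes, with a Benjamini-Hochberg adjusted p of 0.0550. Shmt1 was at 18.7, 18.6 and 22.2 CPM in WT vehicle and 11.6, 16.2 and 17.1 after tunicamycin, and at 23.9, 19.1 and 19.3 CPM in LKO vehicle and 11.2, 16.8, 16.2 and 17.1 after tunicamycin. Every treated sample lay below every vehicle sample of its genotype. Over 22 alternatives its adjusted p ran from 0.0121 to 0.156 and was under 0.05 in 7. The list's median was -0.11 with 9 of 12 below 0, against 0.01 over all genes.

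Among 13 tested genes of the folate cycle, 2 fell with tunicamycin averaged over genotypes, where 2.15% of all genes fell. Sardh, which demethylates sarcosine to glycine in mitochondria, dropped by 0.49 on the log2 scale (SE 0.10, edgeR quasi-likelihood, Benjamini-Hochberg adjusted p = 0.0163). It was at 106, 123 and 116 CPM in WT vehicle and 74.3, 86.4 and 111 after tunicamycin, and at 110, 106 and 105 CPM in LKO vehicle and 58.8, 74.6, 70.0 and 72.4 after tunicamycin. All 4 treated LKO samples lay below all 3 vehicle samples. Dmgdh, the dimethylglycine dehydrogenase that precedes it, dropped by 0.51 (SE 0.12, adjusted p = 0.0264 by the same test). The Sardh value passed in 21 of 22 alternatives and missed without WT tunicamycin 1 (0.0533). The Dmgdh value passed in 16 of 22, with a highest adjusted p of 0.0810. The median of the 13 genes was -0.18 against 0.01 over all genes.

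Of 11 genes of methionine metabolism and transsulfuration, all tested, 1 fell with tunicamycin averaged over genotypes. It was Ahcy, which clears S-adenosylhomocysteine, at -0.43 (SE 0.12, edgeR quasi-likelihood, Benjamini-Hochberg adjusted p = 0.0461), a call kept in 9 of 22 alternatives. Of 13 tested genes of proline, glutamate and aspartate metabolism 0 were called by edgeR, with at most 4 at an unadjusted p under 0.05, while DESeq2 called 1 and limma 3 with tunicamycin averaged over genotypes. The lowest unadjusted p values came with tunicamycin in LKO for Gpt2 at -0.51 (SE 0.16) and Prodh at -0.71 (SE 0.22), both with an adjusted p of 0.247.

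An amino acid carrier rose when both genotypes were averaged. Slc1a4, a neutral amino acid carrier that takes up serine and alanine, was 2.12 higher with tunicamycin averaged over genotypes on the log2 scale (SE 0.42, edgeR quasi-likelihood, Benjamini-Hochberg adjusted p = 0.0160), the only call among 6 tested of 10 listed carriers, where 2.18% of all genes rose. It was at 0.838, 0.256 and 0 CPM in WT vehicle and 1.93, 2.27 and 0.772 after tunicamycin, and at 0.474, 0.657 and 0.593 CPM in LKO vehicle and 3.20, 2.99, 3.67 and 1.09 after tunicamycin. The LKO groups did not overlap, and the WT groups overlapped by 1 sample. The difference was 2.05 in WT and 2.19 in LKO, and neither passed alone (adjusted p = 0.169 and 0.175 by the same test). The interaction was 0.13 (SE 1.02). The averaged value passed in 17 of 19 alternatives and missed without WT tunicamycin 1 (0.0567) and by limma on log2(FPKM + 1) without a filter (0.0900). DESeq2 gave it no adjusted p.

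**Figure D4:**
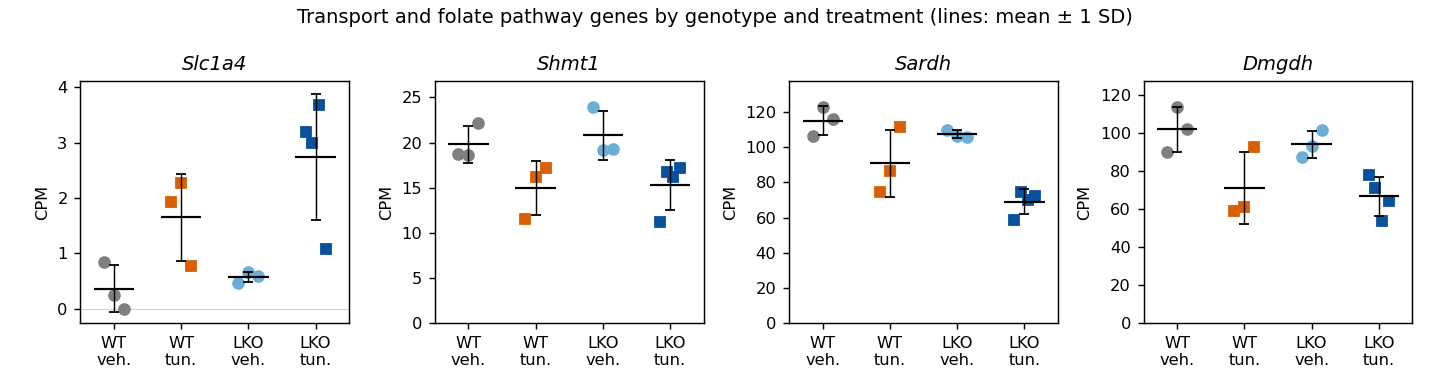
CPM of Slc1a4, Shmt1, Sardh and Dmgdh (vertical axes from 0 or just below) in the 4 groups (horizontal axes), with samples as points, group means as lines and 1 SD as bars. Slc1a4 is higher and the other 3 are lower in most treated samples, for instance Sardh at 58.8 to 74.6 CPM in LKO tunicamycin against 105 to 110 in LKO vehicle.

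Genes of the ATF4 pathway are given beside these. Of 14 tested, 2 rose with tunicamycin in WT, Nupr1 by 4.70 and Ddit3 by 3.71 on the log2 scale, where 0.29% of all genes rose, by edgeR's quasi-likelihood test. Both calls were lost without WT vehicle 1, 2 or 3 or WT tunicamycin 1, and Nupr1 was kept in 6 of 12 and Ddit3 in 5 of 13 fits that left out 1 sample. In LKO 0 rose by edgeR, with 2 at an unadjusted p under 0.05. DESeq2, which gave an adjusted p to 6 of the listed genes and to neither Nupr1 nor Ddit3 in these contrasts, and limma, which tested 8, called 0 in both genotypes. Against treated WT, 3 were lower in treated LKO livers by edgeR, namely Ddit3, Nupr1 and Trib3, where 0.55% of all genes were lower. Among the listed genes DESeq2 called 2 in this contrast, and limma called 0 of 8 tested. Without WT tunicamycin 1 all 3 edgeR calls were lost. Over the fits that left out 1 sample Ddit3 was kept in 11 of 13, Nupr1 in 8 of 12 and Trib3 in 6 of 13. The interaction itself called 0, with 1 at an unadjusted p under 0.05 and 0 by DESeq2 or limma. It was -3.04 (SE 1.35, Benjamini-Hochberg adjusted p = 0.948) for Ddit3. Averaged over genotypes Atf5, Nupr1, Chac1 and Trib3 rose by edgeR, where 2.18% of all genes rose. Chac1 rose by 1.27 (SE 0.32) and Atf5 by 0.54 (SE 0.13). DESeq2 called 1 of the listed genes here, and limma called 0 of 8 tested. The 4 edgeR calls were also lost without WT tunicamycin 1, and without WT vehicle 1 or 2.

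Markers of other cells moved in some of the same contrasts. The neutrophil genes S100a8 and S100a9 rose with tunicamycin averaged over genotypes by edgeR, where 2.18% of all genes rose. The differences were 2.51 and 2.33 on the log2 scale, for the 2 tested of 3 neutrophil markers in the files. The 3 markers summed to 0.128 to 0.875 CPM in WT vehicle and 0.154 to 7.84 CPM in WT tunicamycin. In LKO the sums were 0.474 to 2.04 CPM with vehicle and 3.37 to 6.64 CPM after tunicamycin. Limma tested both genes and called 0, and DESeq2 gave neither an adjusted p. Col1a1, a stellate cell collagen gene, and Spp1, made by bile duct cells, were 1.88 and 1.79 higher in LKO than in WT over both treatments. They were the only called markers among 4 and 2 tested, where 2.21% of all genes were called in either direction. Of the markers of lobule position, the periportal gene Cyp2f2 was 0.53 lower with tunicamycin averaged over genotypes, where 2.15% of all genes were lower. It was 1 of 5 tested. Of 6 pericentral genes 0 were called by edgeR, with at most 2 at an unadjusted p under 0.05. Among 5 hepatocyte markers, Hnf4a was 0.54 lower in treated LKO than in treated WT livers, where 0.55% of all genes were lower. Hnf4a was also called over both treatments, at 0.34 lower in LKO. Of 2 dividing cell markers tested 0 were called by edgeR, although DESeq2 called 2 in LKO against WT averaged over treatments. Of 6 macrophage and 5 endothelial markers 0 were called by edgeR, with at most 4 and 1 at an unadjusted p under 0.05. The fitted tunicamycin difference was above 0 for all 6 macrophage markers in both genotypes, and DESeq2 called 1 of them averaged over genotypes. The 4 T and B cell markers summed to at most 0.829 CPM. Leaving out 1 sample at a time, the Col1a1 call was kept in 13 of 13 fits, Cyp2f2 in 12, Spp1 in 9, S100a9 in 7 and S100a8 in 6. The Hnf4a call was kept in 4 after tunicamycin and in 3 over both treatments. Without WT tunicamycin 1 the calls of Cyp2f2, S100a8, S100a9 and Hnf4a were lost. The part of these cells in the differences of Slc1a4, Sardh, Dmgdh and the sparse members was not tested.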

How the data were processed

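RNA-seq libraries of mouse liver came as whole read counts per gene, 1 file per library, with the read totals and gene names as STAR writes them per the file headers, and as an FPKM table that the authors deposited for the same libraries. The submitters' processing notes name Trimmomatic, STAR, Cufflinks and mm10, and their versions and settings are not given in the sources used here. The members and gene lists were chosen with earlier results of these data known. Counts on the gene's strand (column 3, 99.5 to 99.6% of stranded reads) were used. LKO vehicle libraries 3 and 4 had a chi-square per degree of freedom of 1.12, against 3.38 to 25.9 in the other 17 pairs within groups, and were summed. edgeR 4.0.16 in R 4.3.3 fitted 1 mean per group over 13 samples, with TMM scaling, filterByExpr and 9 residual degrees of freedom, and p-values were adjusted by Benjamini-Hochberg over all 9644 genes tested at a threshold of 0.05. The averaged contrasts weight genotypes or treatments equally. Alternatives were DESeq2 1.42.0, limma 3.58.1 on log2(FPKM + 1) or log2(FPKM + 0.1) with at least 1 FPKM in 3 samples, other scalings, no filter, a replicate block, separate libraries and leaving out each sample. Of the FPKM names, 277 had several entries and were not used. The named genes are the members, Rbbp5, for each list the called genes (at most 6, by adjusted p) or else the 2 with the smallest p, and the 2 genes most correlated with each tested member. A gene that this last rule names is not reported here. Unfiltered fits of single members under the alternatives were added after seeing the data. The script was tested on simulated counts.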

Additional observations from a re-analysis of the deposited data

How the results depend on the processing

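Asns and Shmt2 did not pass the threshold under any alternative that gave them an adjusted p. Without the filter on low counts edgeR called 1 member, Aldh18a1, with tunicamycin in WT and 1 averaged over genotypes. The cause of the changes below was not tested. The Shmt2 difference with tunicamycin in WT turned to -0.148 by total count scaling, -0.00703 by limma on log2(FPKM + 1) with or without the filter and -0.00958 on log2(FPKM + 0.1). For LKO against WT with vehicle it turned to -0.00825 with 14 libraries. The Asns interaction turned to -0.124 by DESeq2 and -0.116 on log2(FPKM + 1) without a filter. Total count scaling moved the median of all genes to -0.177 for tunicamycin in WT, 0.14 for LKO against WT after tunicamycin, 0.127 for the interaction and -0.106 for tunicamycin averaged over genotypes.

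Leaving out 1 sample each, Asns ran from 0.214 to 2.02 for tunicamycin in WT, from -0.0867 to 3.16 in LKO, from -2.63 to 0.910 for LKO against WT with vehicle, from -1.21 to 0.0989 after tunicamycin, from -1.12 to 2.42 for the interaction, from 0.333 to 1.95 for tunicamycin averaged and from -1.42 to 0.347 for genotype averaged. Shmt2 ran from -0.0737 to 0.127 for tunicamycin in WT and from -0.0538 to 0.0953 for LKO against WT with vehicle.

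Over all genes, tunicamycin in WT called 35 in the fit used above, 56 genes with 14 libraries, 148 by total count scaling, 289 without the filter, 7 with only the groups compared, 152 by DESeq2, 2, 6 and 0 by limma on log2(FPKM + 1), log2(FPKM + 0.1) and without a filter, and 0 to 615 without 1 sample. Tunicamycin in LKO called 5 with 14 libraries, 153 without the filter, 34 by DESeq2, 0, 0 and 1 by limma and 0 to 67 without 1 sample. LKO against WT with vehicle called 12 with 14 libraries, 8 by total count, 84 without the filter, 25 with only these groups, 17 by DESeq2, 0 by each limma fit and 0 to 17 without 1 sample. LKO against WT after tunicamycin called 164 by total count, 261 without the filter, 27 with only these groups, 137 by DESeq2, 46, 41 and 7 by limma and 0 to 183 without 1 sample. The interaction called 0 to 2. Tunicamycin averaged called 668 with 14 libraries, 810 by total count, 764 without the filter, 19 by limma without a filter and 59 to 1085 without 1 sample. Genotype averaged called 514 without the filter, 73, 58 and 43 by limma and 62 to 413 without 1 sample.

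The replicate block called 5 genes for tunicamycin in LKO, 0 for LKO against WT with vehicle and 32 for LKO against WT after tunicamycin. Same-numbered samples correlated from -0.118 to 0.141 over 18 pairs, of which 3 were over 0.1. Pairs with unlike numbers were not set beside them, so these values cannot settle whether the numbers pair the samples. With 0 to 15 reads per sample for Mthfd2, Aldh18a1 and Psat1, depth limits every statement on them.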
